A study of Mus musculus with 12 samples.

Results

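ATP-binding cassette (ABC) transporters move lipids, bile constituents and drugs across membranes at the expense of ATP, and 10 of their genes were followed here in whole livers of interleukin-18 knockout mice, which lack a pro-inflammatory cytokine. The genes were Abca1, Abcb1a, Abcb4, Abcc2, Abcc3, Abcc4, Abcd2, Abcg2, Abcg5 and Abcg8, taken as the probes that carried these names on the array. Each had 1 probe, and all 10 were among the 22130 genes tested. RNA came from BALB/c mice in 4 groups of 3 arrays: interleukin-18 knockout at 12 weeks of age, wild type at 12 weeks, knockout at 6 weeks and wild type at 6 weeks. No group was treated. The labels call the arrays of a group biological replicates but do not say how many animals gave the RNA, nor their sex or the hour of sampling, and nothing is said of how the knockout was made.

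In a hepatocyte, ABC exporters sit on opposite faces of the cell. On the canalicular face, which opens to the bile, Abcb4 flips phosphatidylcholine outward, the Abcg5 and Abcg8 half-transporters pair to secrete sterols, Abcc2 exports glucuronide and glutathione conjugates, and Abcb1a and Abcg2 export drugs and other foreign compounds. On the sinusoidal face, which meets the blood, Abca1 loads cholesterol and phospholipid onto apolipoprotein A1, and Abcc3 and Abcc4 return conjugates and bile salts to the circulation. Abcd2 is the exception among the 10: it lies in the peroxisomal membrane and carries very-long-chain fatty acyl-CoA into that organelle, so it exports nothing from the cell. Several of these genes are known targets of ligand-activated receptors: LXR for Abca1, Abcg5 and Abcg8, FXR for Abcb4, and CAR and PXR for drug exporters.

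Levels are log2 of the background-subtracted spot intensity relative to the 75th percentile of the same array, so 0 is the level of that percentile. Levels of different probes are not comparable with each other. In whole-liver RNA, fewer cells of a type and less RNA per cell cannot be told apart. The labels were borne out by Il18 itself, the targeted gene, whose level lay between -0.12 and 0.04 in 12-week knockout livers against 2.15 to 2.49 in 12-week wild type livers, and between -0.37 and -0.02 in 6-week knockout livers against 2.35 to 2.44 in 6-week wild type livers. Hepatocyte markers were abundant on all arrays: the summed linear level of the 12 markers, in multiples of the 75th percentile, was 7504 to 8518 in 12-week knockout, 7834 to 8261 in 12-week wild type, 7824 to 8982 in 6-week knockout and 8638 to 8904 in 6-week wild type livers. The arrays lay on 2 slides. Slide 1 held the 3 arrays of 6-week wild type and replicate 1 of 12-week wild type, and slide 2 held all 6 knockout arrays and replicates 2 and 3 of 12-week wild type. Among 6-week arrays the genotypes thus lay on different slides, so that slide and genotype cannot be told apart without leaning on replicate 1 of 12-week wild type, while at 12 weeks both genotypes lay on slide 2.

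At 6 weeks, 5 of the 10 transporters differed between knockout and wild type livers at an adjusted p under 0.05 (limma, Benjamini-Hochberg over all genes), and 21.1% of all genes tested did (11.7% higher and 9.35% lower). Abcg2 and Abca1 were higher in the knockout, by 0.80 ± 0.10 and 0.37 ± 0.07 on the log2 scale (SE, 3 arrays a group). Abcd2, Abcb1a and Abcc3 were lower, by 8.77-fold, 4.35-fold and 1.82-fold. At 12 weeks Abcd2 was the 1 transporter of 10 that passed, 3.87-fold lower in the knockout, against 8.21% of all genes, 2.56% being lower. The Abcd2 probe entered the tests only through the wild type groups and lay close to the detection limit in the knockout. Both of its fold values were smaller with another background correction (normexp). The arrays of the genotypes did not overlap for 7 of 10 transporters at 6 weeks, 2 higher and 5 lower, where they were apart for 47.9% of all genes (25.3% higher and 22.5% lower). At 12 weeks they were apart for 4 of 10, all lower, against 27.4% of all genes (9.87% lower). Abcg5 was among these 4 by a very narrow margin. The median log2 difference of the 10 genes was -0.43 at 6 weeks and -0.28 at 12 weeks, beside 0.02 and 0.01 over all genes tested.

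**Figure D1:**
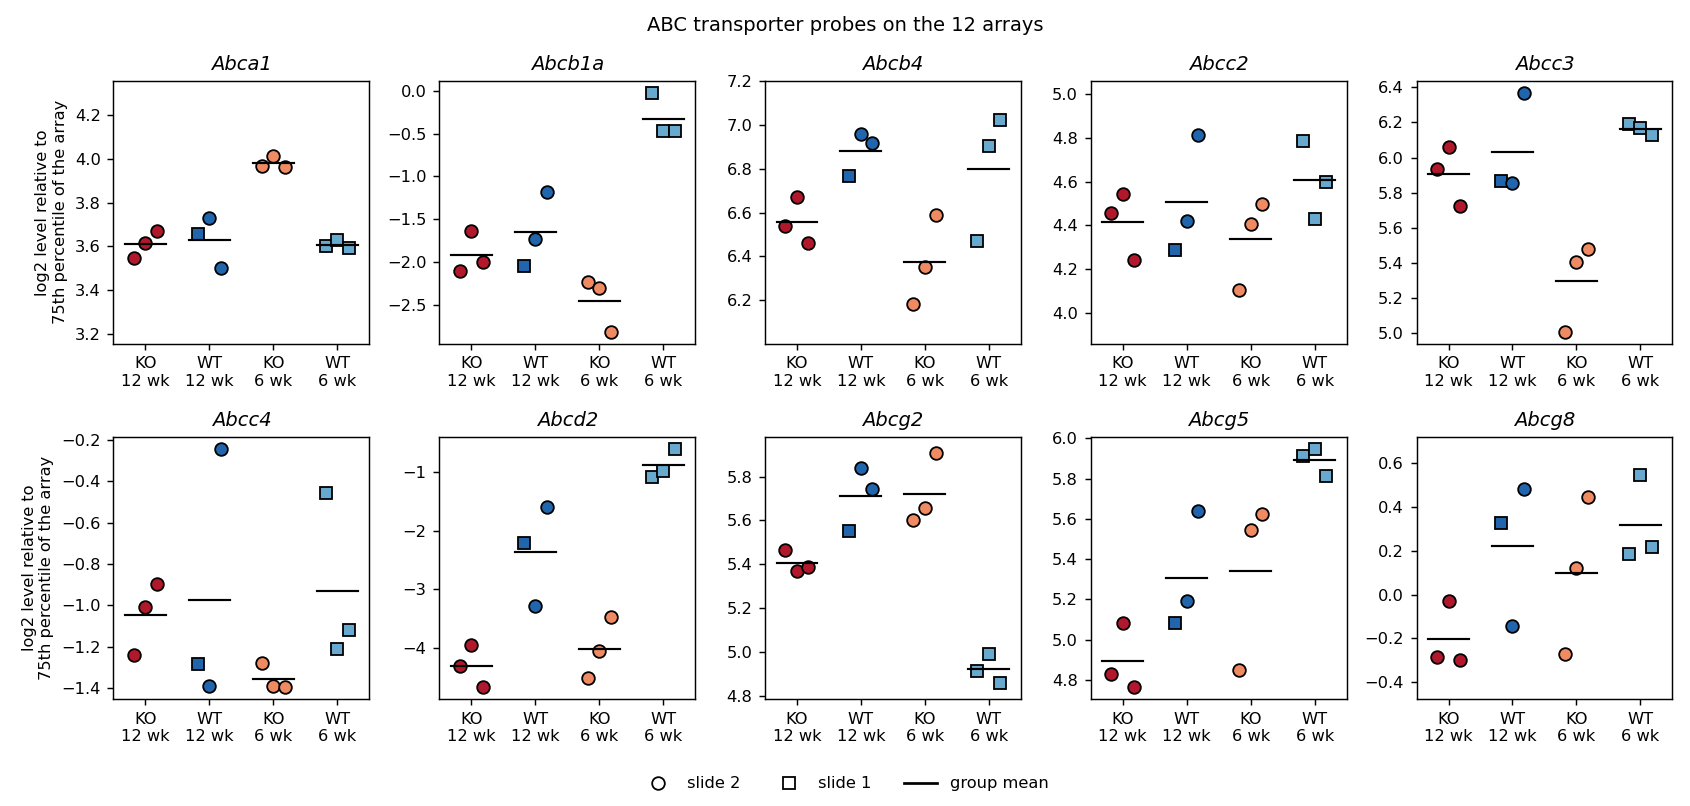
Level of each of the 10 transporter genes on every array (log2 relative to the array's 75th percentile, vertical axis), by group along the horizontal axis; circles are arrays of slide 2, squares arrays of slide 1 and bars group means, and each panel has its own range. Abcd2 is lower in knockout than in wild type livers at both ages, whereas Abcb1a and Abcg2 stand apart in 6-week wild type livers.

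Abcd2, the peroxisomal importer, showed the largest difference of the 10 at both ages. Its probe lies at chr15:90976565-90976624 on mm9, minus strand. The levels were -4.32, -3.96 and -4.67 on the 12-week knockout arrays against -2.21, -3.28 and -1.60 on the 12-week wild type arrays. On the 6-week arrays they were -4.52, -4.05 and -3.48 in the knockout against -1.08, -0.98 and -0.60 in the wild type. No knockout array reached the lowest wild type array of the same age. The knockout signal was close to the detection limit. In each knockout group 2 of 3 arrays were well above background, against all arrays in both wild type groups. The probe thus entered the tests only through the wild type groups, where it was high, which limits what its p-values can show. The fitted difference was -1.95 ± 0.40 at 12 weeks (adjusted p = 0.018, limma) and -3.13 ± 0.40 at 6 weeks (adjusted p = 0.000842, limma). With another background correction (normexp) the differences were -0.69 at 12 weeks and -1.61 at 6 weeks, both still past the threshold. The 12-week call was lost without replicate 1 of 12-week wild type (-1.88, adjusted p = 0.051) and without replicates 1 or 3 of 12-week knockout (adjusted p = 0.0589 and 0.0697, limma), and within slide 2 the difference was -1.88 (adjusted p = 0.0965, limma). The difference between the ages in the genotype difference was 1.18 ± 0.56 and did not pass (95% interval -0.07 to 2.43, adjusted p = 0.221, limma).

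In wild type livers Abcd2 was lower at 12 than at 6 weeks, by 1.48 on the log2 scale (adjusted p = 0.046, limma), and in knockout livers the change was -0.30 ± 0.40 (adjusted p = 0.745). All 3 arrays of 6-week wild type and 1 of the 3 of 12-week wild type lay on slide 1, and the wild type call was lost with the slide as a fixed block (-1.32, adjusted p = 0.265) and as a random block (-1.42, adjusted p = 0.12, limma). In the 12-week wild type its 3 arrays spread over more of the scale (SD 0.85) than those of any other group (SD 0.25 to 0.52). The wild type age call did not survive leaving out any 1 array of 6-week wild type, replicates 1 or 2 of 12-week wild type, replicate 2 of 6-week knockout or any 1 array of 12-week knockout, with adjusted p up to 0.133 (limma), and replicate 2 of 12-week wild type moved the value the most, to -1.02.

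Abcb1a encodes 1 of the 2 P-glycoproteins of the mouse, an exporter of bulky lipophilic drugs. Its probe lies at chr5:8748075-8748134 on mm9, plus strand. Levels were -2.11, -1.64 and -2.002 on the 12-week knockout arrays against -2.04, -1.73 and -1.19 on the 12-week wild type arrays. They were -2.23, -2.31 and -2.81 on the 6-week knockout arrays against -0.03, -0.48 and -0.48 on the 6-week wild type arrays. The 6-week wild type arrays stood above the other 9, and at 12 weeks the genotypes overlapped. The genotype difference was -2.12 ± 0.24 at 6 weeks (adjusted p = 0.000426) and -0.26 ± 0.24 at 12 weeks (95% interval -0.79 to 0.27, adjusted p = 0.537), and it changed with age by 1.86 ± 0.34 (adjusted p = 0.00778, all limma). In wild type livers the gene was lower at 12 than at 6 weeks by 1.33 (adjusted p = 0.00934), a call lost when only the wild type arrays entered the fit (adjusted p = 0.061). The array of 12-week wild type that shared slide 1 with the 6-week wild type arrays was replicate 1, at -2.04, below all 3 of them. With the slide as a fixed block the 6-week genotype difference was -2.70 ± 0.39 (adjusted p = 0.0123, limma), and with normexp it was -1.40. The other mouse P-glycoprotein gene, Abcb1b, named here after its values were seen, differed by 0.18 ± 0.23 at 6 weeks and -0.37 ± 0.23 at 12 weeks, neither past the threshold (adjusted p = 0.594 and 0.366, limma).

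Abcg2, known as the breast cancer resistance protein, exports drugs, urate and porphyrins. Its probe lies at chr6:58642312-58642371 on mm9, plus strand. The 12-week levels were 5.46, 5.37 and 5.39 in knockout livers against 5.55, 5.84 and 5.74 in wild type livers. The 6-week levels were 5.602, 5.65 and 5.91 in knockout livers against 4.91, 4.99 and 4.86 in wild type livers. The genotypes did not overlap at either age, and they stood in opposite order: knockout above wild type at 6 weeks and below it at 12 weeks. The difference was 0.80 ± 0.10 at 6 weeks (adjusted p = 0.000842) and -0.30 ± 0.10 at 12 weeks (adjusted p = 0.0952, limma). At 12 weeks it passed with normexp (-0.35, adjusted p = 0.0298) and with quantile normalization (-0.32, adjusted p = 0.0417, limma). The change with age in the genotype difference was -1.11 ± 0.14 (adjusted p = 0.00166, limma). In wild type livers Abcg2 was higher at 12 than at 6 weeks by 0.79 ± 0.10 (adjusted p = 0.00201), and in knockout livers the change was -0.32 ± 0.10 (adjusted p = 0.0974, limma). Replicate 1 of 12-week wild type, on slide 1, lay at 5.55, above the 3 arrays of 6-week wild type on the same slide.

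Abca1, the lipid exporter that starts high-density lipoprotein formation, had its probe at chr4:53043944-53044003 on mm9, minus strand. In 12-week livers its levels were 3.55, 3.61 and 3.67 in the knockout against 3.66, 3.73 and 3.499 in the wild type. In 6-week livers they were 3.97, 4.01 and 3.96 in the knockout against 3.60, 3.63 and 3.59 in the wild type. The 6-week knockout was thus the group that stood apart, and the other 3 groups shared 1 range. The genotype difference was 0.37 ± 0.07 at 6 weeks (adjusted p = 0.00793) and -0.02 ± 0.07 at 12 weeks (95% interval -0.18 to 0.15, adjusted p = 0.911, limma). Among knockout livers, all on slide 2, Abca1 was lower at 12 than at 6 weeks by 0.37 (adjusted p = 0.0178, limma). That was the 1 transporter of 10 called for age in the knockout, where 6.91% of genes were. The call was lost without replicates 2 or 3 of 6-week knockout or replicates 1 or 2 of 12-week knockout (adjusted p up to 0.0646, limma). In wild type livers 3 of 10 were called for age, Abcb1a, Abcd2 and Abcg2, against 9.04% of genes. The genotype difference changed with age by -0.39 ± 0.11 (adjusted p = 0.0419), a call that held without replicates 1 or 3 of 12-week wild type and failed without any other single array (adjusted p up to 0.0945, limma).

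The promoter of Abca1 is shown because it is the sterol exporter that was called higher. RefSeq sequence on GRCm38.p6 was at hand for 8 of the 10 genes, as windows of 250 bases before and 50 bases after each start, 12 windows in all. In the stretch chr4:53159896-53160065, minus strand, which ends at the base before the start, capitals mark an E-box (CACGTG) at -147 and GC boxes (GGGCGG) at -163 and -97, positions being those of the first base of a match counted from the start:

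Abca1: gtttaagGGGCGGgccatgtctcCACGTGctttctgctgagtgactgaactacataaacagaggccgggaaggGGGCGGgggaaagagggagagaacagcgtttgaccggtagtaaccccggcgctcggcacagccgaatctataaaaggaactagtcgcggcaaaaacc

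Over all 32851 mouse windows of this length, searched on both strands, 7.15% held the E-box and 35.7% the GC box. Besides Abca1, 1 of the windows of Abcc4 held the E-box, at -205. The nuclear receptor half-site AGGTCA, in 16.3% of all windows, was matched in windows of Abcg2 and Abcc2, and the antioxidant response core TGACNNNGC, in 12.4% of all windows, in those of Abcb1a, Abcc4 and Abcc2. These matches are exact letters in a window and not measured binding. Forms of a site with other letters were not searched, so a window without a match may still hold one.

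Abcg5 and Abcg8 are neighbours that start back to back on opposite strands, so the letters between their starts belong to the promoters of both. The stretch chr17:84683012-84683120, plus strand, is shown because a pair read from 1 shared stretch can be set side by side, with capitals marking both GATA sites (AGATAA, here on the minus strand as TTATCT):

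Abcg5-Abcg8: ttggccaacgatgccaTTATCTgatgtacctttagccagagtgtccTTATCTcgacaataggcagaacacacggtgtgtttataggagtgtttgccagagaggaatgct

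The GATA site was in 11.2% of all windows, and among the 12 windows of these genes it was in those of Abcg5 and in 1 of the windows of Abcg8. Abcg5 levels were 4.83, 5.08 and 4.76 on the 12-week knockout arrays against 5.08, 5.19 and 5.64 on the 12-week wild type arrays, and 4.85, 5.55 and 5.62 on the 6-week knockout arrays against 5.91, 5.95 and 5.81 on the 6-week wild type arrays. The groups did not overlap at either age, with the knockout lower, but at 12 weeks the margin was very narrow. The nearest 12-week arrays were 5.0824 in the knockout and 5.0842 in the wild type. Abcg8 levels were -0.28, -0.03 and -0.30 on the 12-week knockout arrays against 0.33, -0.14 and 0.48 on the 12-week wild type arrays, and -0.27, 0.12 and 0.45 on the 6-week knockout arrays against 0.19, 0.55 and 0.22 on the 6-week wild type arrays, and here the groups overlapped at both ages. Neither partner passed at a single age, except that Abcg5 did at 6 weeks with quantile normalization (-0.63, adjusted p = 0.0474, limma). Abcg5 differed by -0.41 ± 0.21 at 12 weeks and -0.55 ± 0.21 at 6 weeks (adjusted p = 0.247 and 0.0803). Abcg8 differed by -0.43 ± 0.21 at 12 weeks and -0.22 ± 0.21 at 6 weeks (adjusted p = 0.232 and 0.465, limma). Probes for the pair lie at chr17:85057593-85057652 on the minus strand and chr17:85098745-85098804 on the plus strand of mm9.

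Abcb4, the phospholipid floppase without which bile lacks phosphatidylcholine, had its probe at chr5:8959108-8959167 on mm9, plus strand. Levels were 6.54, 6.67 and 6.46 on the 12-week knockout arrays against 6.77, 6.96 and 6.92 on the 12-week wild type arrays, and 6.18, 6.35 and 6.59 on the 6-week knockout arrays against 6.47, 6.90 and 7.02 on the 6-week wild type arrays. The knockout arrays were all below the wild type arrays at 12 weeks and overlapped them at 6 weeks. The difference was -0.32 ± 0.15 at 12 weeks (adjusted p = 0.211) and -0.42 ± 0.15 at 6 weeks (adjusted p = 0.0687, limma). The 6-week difference passed without replicate 1 of 6-week wild type (-0.59, adjusted p = 0.0197), with normexp (-0.47, adjusted p = 0.0343) and with quantile normalization (-0.46, adjusted p = 0.0489, limma). Abcb11, the bile salt export pump, is the other ABC gene on which bile formation depends and was named here after its values were seen. It differed by -0.08 ± 0.08 at 12 weeks and 0.17 ± 0.08 at 6 weeks, neither past the threshold (adjusted p = 0.557 and 0.15, limma).

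Of the 3 exporters of conjugates, Abcc3 was the one called. Its probe lies at chr11:94204612-94204671 on mm9, minus strand. Levels were 5.93, 6.06 and 5.73 on the 12-week knockout arrays against 5.87, 5.86 and 6.37 on the 12-week wild type arrays. They were 5.01, 5.41 and 5.48 on the 6-week knockout arrays against 6.19, 6.17 and 6.13 on the 6-week wild type arrays. The genotypes overlapped at 12 weeks and were apart at 6 weeks, where the 6-week knockout lay below every other array. The difference was -0.12 ± 0.16 at 12 weeks (adjusted p = 0.685) and -0.86 ± 0.16 at 6 weeks (adjusted p = 0.00609, limma). In knockout livers, within slide 2, the level at 12 weeks exceeded that at 6 weeks by 0.61 ± 0.16, just short of the threshold (adjusted p = 0.0517), and past it with normexp, quantile normalization, the random slide block and the 12-array filter, and without replicate 3 of 12-week wild type (adjusted p = 0.0231 to 0.0424, limma). The change with age in the genotype difference was 0.74 ± 0.23 (adjusted p = 0.0694), also past the threshold with normexp, with quantile normalization and without that array (adjusted p = 0.0175 to 0.0431, limma).

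Abcc2, the canalicular conjugate exporter whose loss gives conjugated hyperbilirubinaemia, was read at chr19:43912079-43912138 on mm9, plus strand. Its levels were 4.46, 4.54 and 4.24 on the 12-week knockout arrays against 4.29, 4.42 and 4.81 on the 12-week wild type arrays, and 4.10, 4.41 and 4.50 on the 6-week knockout arrays against 4.79, 4.43 and 4.60 on the 6-week wild type arrays. The groups overlapped at both ages. The difference was -0.09 ± 0.16 at 12 weeks (95% interval -0.45 to 0.26) and -0.27 ± 0.16 at 6 weeks (95% interval -0.63 to 0.09).

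Abcc4, the sinusoidal exporter of bile salts and cyclic nucleotides, was read at chr14:118882104-118882163 on mm9, minus strand. Its levels were -1.24, -1.01 and -0.90 on the 12-week knockout arrays against -1.29, -1.39 and -0.24 on the 12-week wild type arrays, and -1.28, -1.39 and -1.40 on the 6-week knockout arrays against -0.46, -1.21 and -1.12 on the 6-week wild type arrays. At 6 weeks the arrays of the genotypes were apart, with the knockout lower, and at 12 weeks the knockout arrays lay between the wild type arrays. The wild type arrays spread widely, with an SD of 0.64 at 12 weeks and 0.41 at 6 weeks. The difference was -0.08 ± 0.29 at 12 weeks (95% interval -0.71 to 0.56) and -0.43 ± 0.29 at 6 weeks (95% interval -1.06 to 0.21), and neither passed (adjusted p = 0.898 and 0.305, limma).

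**Figure D2:**
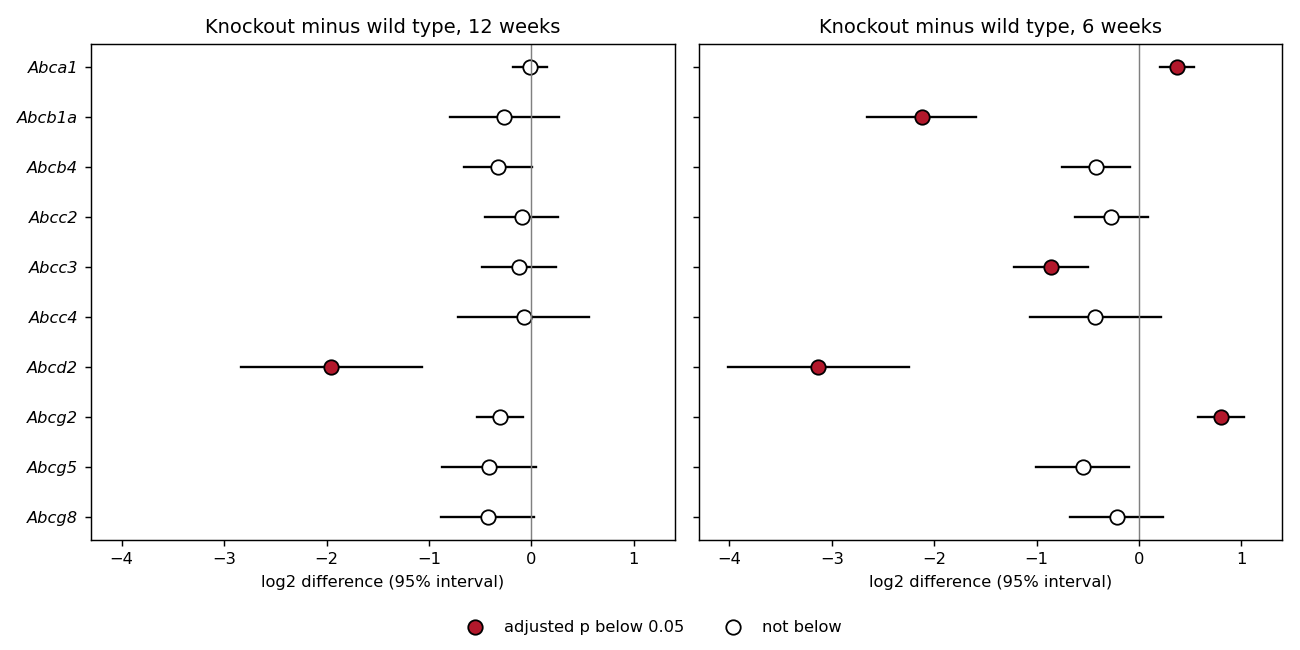
Knockout minus wild type difference of each transporter (log2, horizontal axis) at 12 weeks (left) and 6 weeks (right), with 95% intervals from the fit; filled points had an adjusted p under 0.05. Abcd2 alone is filled at 12 weeks (-1.95), and Abca1, Abcb1a, Abcc3, Abcd2 and Abcg2 are filled at 6 weeks.

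Averaged over both ages, 7 of 10 transporters passed, against 20.5% of all genes (12.7% higher and 7.85% lower). Abca1 (0.18) and Abcg2 (0.25) were higher in the knockout, and Abcb1a (-1.19), Abcb4 (-0.37), Abcc3 (-0.49), Abcd2 (-2.54) and Abcg5 (-0.48) were lower. For Abca1, Abcb1a and Abcg2 this average joins differences that changed with age, 3 of 10 against 10.3% of all genes. With the slide as a fixed block, Abcb1a alone passed in this average (-1.58 ± 0.27, adjusted p = 0.0278, limma), against 1.77% of genes, and with the random block 2 of 10 passed, against 4.46% of genes. Leaving out single arrays lowered the count to between 3 and 6.

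A fixed slide block left 1 of 10 transporters called at 6 weeks, Abcb1a, and 2.66% of genes. The estimates of the others kept their sign but widened: Abcd2 -2.90 ± 0.75 (adjusted p = 0.0804), Abcc3 -1.11 ± 0.29 (adjusted p = 0.0819), Abcg2 0.56 ± 0.16 (adjusted p = 0.107) and Abca1 0.42 ± 0.13 (adjusted p = 0.131, limma). With the slide as a random block, at an estimated correlation of 0.325, all 5 calls of 6 weeks held while the share of all genes called was 5.54%. At 12 weeks the fixed block left no transporter called (Abcd2 -1.88, adjusted p = 0.051, limma), and 5.8% of genes. For this comparison the fixed block amounts to leaving out replicate 1 of 12-week wild type, which gave the same values. On the arrays of slide 2 alone 0 of 10 passed (3.31% of genes, Abcd2 -1.88). Since that fit compares the same 12-week arrays, these are not separate checks. The change with age in the genotype difference was called under the fixed block for 2 of 10, Abcb1a and Abcg2, against 6.93% of genes. The part of the slide in the 6-week differences was not tested beyond these fits.

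**Figure D3:**
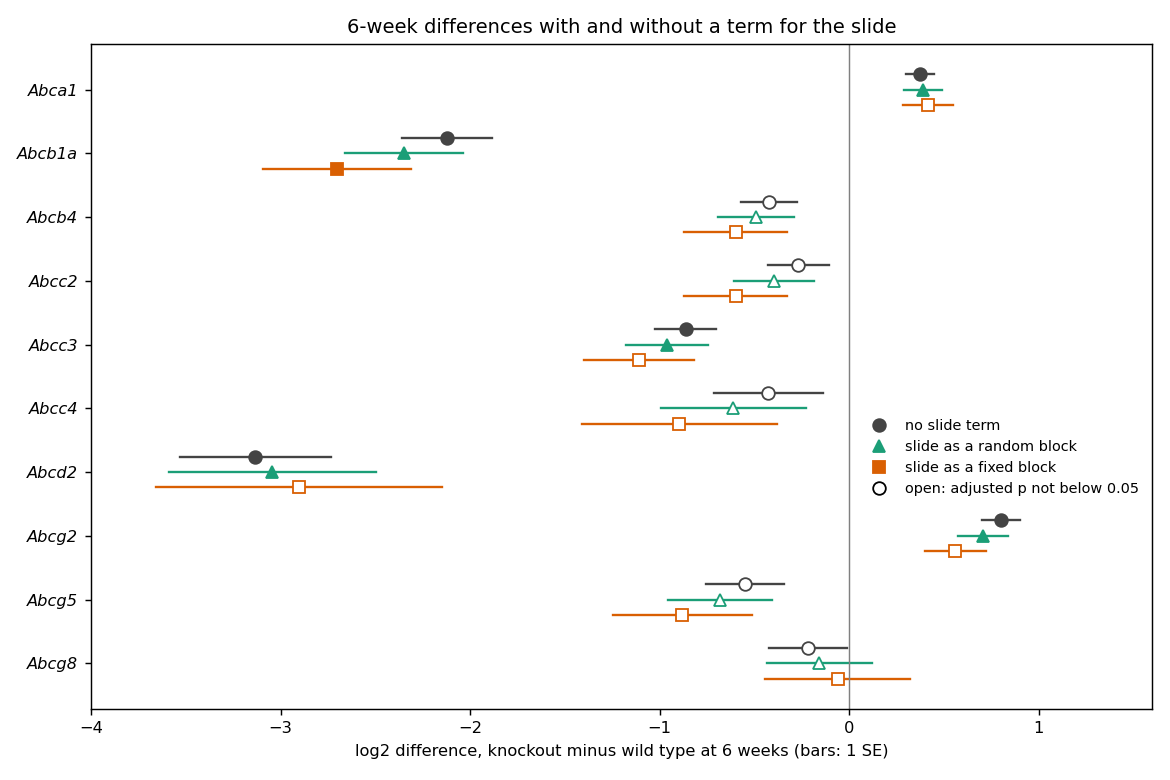
Knockout minus wild type difference at 6 weeks (log2, horizontal axis; bars are 1 SE) for each transporter with no slide term (circles), with the slide as a random block (triangles) and as a fixed block (squares); open symbols did not pass an adjusted p of 0.05. The estimate of Abcb1a stays filled in all 3 fits, and those of Abca1, Abcc3, Abcd2 and Abcg2 open under the fixed block.

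Within the rest of the family, 33 other ABC genes were tested. At 6 weeks 3 were higher and 3 lower in the knockout, where 21.1% of all genes were called. At 12 weeks 2 were higher and 2 lower, where 8.21% of all genes were called. The same shares stand beside the counts of the lists that follow. The median difference of the 33 genes was 0.01 at 6 weeks and -0.05 at 12 weeks. Abca2 (0.61), Abca9 (0.88) and Abcb10 (0.48), a mitochondrial transporter needed for haem synthesis, were higher in the 6-week knockout. Abcc12 was lower in the knockout at both ages: at 6 weeks it was not well above background on any knockout array, at a mean of -4.47 in the knockout against -2.56 in the wild type, and was at least 3.62-fold lower (adjusted p = 0.00187), taking for each array the higher of its lowest spot signal well above background and the value of the probe itself as the floor. Its 12-week difference was -1.32 ± 0.28 (adjusted p = 0.0218, limma), with 1 of 3 knockout arrays above background. The Abcc12 probe entered the tests only through the wild type groups, where it was high, which limits what these p-values can show. The 6-week bound holds only for that floor, which was not specific to the probe. Abcb9, a lysosomal peptide transporter, was lower at 6 weeks (-0.51) and higher at 12 weeks (0.63). At 12 weeks Abcc5, an exporter of cyclic nucleotides and haem, was lower (-0.45) and Abcf2 higher (0.31). The fixed slide block left 1 of the 6 calls of 6 weeks and 2 of the 4 of 12 weeks. On the arrays of slide 2 alone, 1 of the 4 of 12 weeks stood in number.

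**Figure D4:**
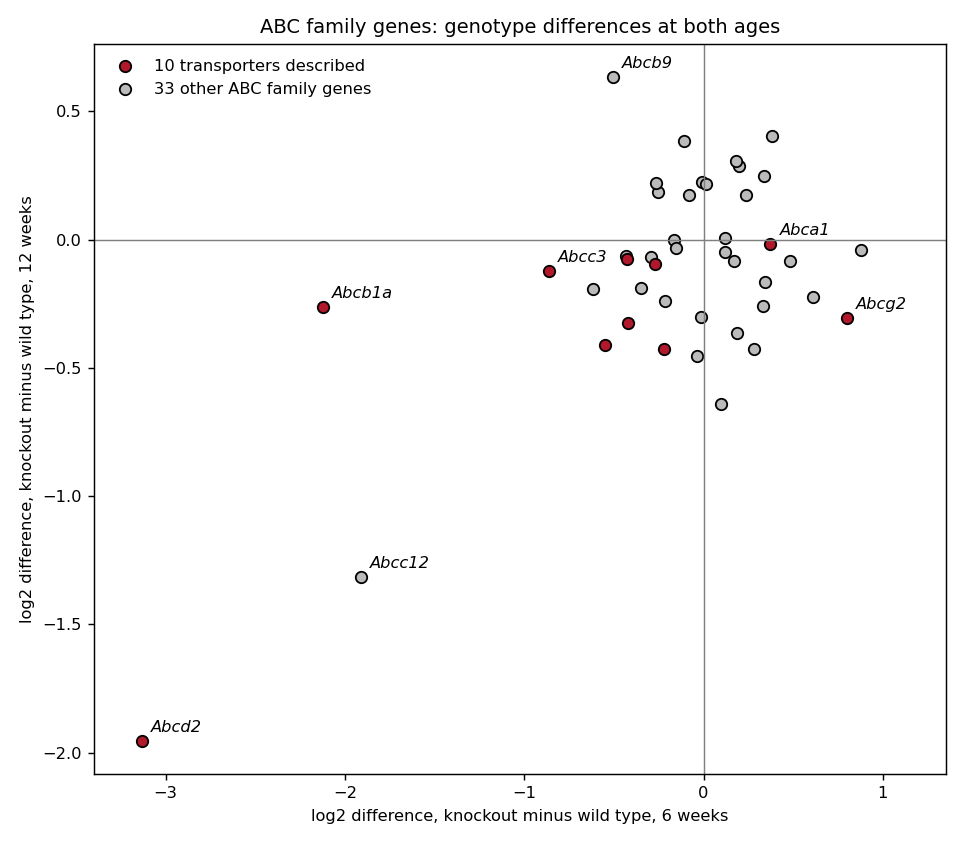
Knockout minus wild type difference (log2) at 6 weeks (horizontal axis) against 12 weeks (vertical axis) for the 10 transporters described (filled red) and 33 other ABC family genes (grey). Abcd2 and Abcc12 lie low on both axes, Abcb1a low at 6 weeks and near 0 at 12 weeks, and Abcb9 has opposite signs.

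Among receptors and transcription factors known to regulate exporters, 22 genes were tested. In the 6-week knockout 4 were lower: Nr1i3, which encodes CAR (-1.08 ± 0.15, adjusted p = 0.00158), Nr1h4, which encodes FXR (-0.62 ± 0.08, adjusted p = 0.000732), Ppara (-0.61) and Pparg (-1.12, limma). At 12 weeks none of these 4 passed. Under the fixed slide block 2 of the 4 stood at 6 weeks, Nr1i3 (-1.44) and Nr1h4 (-0.80).

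Of 11 CAR and PXR targets other than the transporters, 7 were lower and 2 higher in the 6-week knockout, with a median of -1.28, and 3 were lower at 12 weeks. Cyp2b10, the classical CAR-induced cytochrome, had a mean level of 0.05 in 6-week knockout livers against 5.75 in 6-week wild type livers, a difference of -5.70 ± 0.60 (adjusted p = 0.000302, limma). Its 12-week means were 0.43 in the knockout against 2.04 in the wild type, a difference that did not pass (-1.62 ± 0.60, adjusted p = 0.128, limma). Cyp2b9 was not well above background on any 6-week knockout array and was at least 63.5-fold lower there, by the floor given for Abcc12. Measured means were -4.94 in the knockout against 1.63 in the wild type (adjusted p = 0.000163, limma). Its probe entered the tests only through 6-week wild type, where it was high, which limits what this p-value can show. Slco1a4, a sinusoidal uptake carrier, was lower at 6 weeks (-1.62), Ces2a higher (0.47), and Cyp3a11, the main PXR target, lower at both ages (-0.36 at 12 weeks and -0.46 at 6 weeks). Gadd45b (-1.19) and Cyp2c55 (-1.27) were lower at 12 weeks, and Cyp2c55 was higher at 6 weeks (0.72). The fixed slide block left 3 of the 9 calls of 6 weeks, all lower, and 2 of the 3 of 12 weeks.

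Of 15 NRF2 targets, which answer oxidative stress, 4 were lower and 2 higher in the 6-week knockout, and 4 were lower at 12 weeks. Gclc, the catalytic subunit of the enzyme that starts glutathione synthesis, was lower at 12 weeks (-0.79) and higher at 6 weeks (0.64). Gclm, its partner subunit, was lower at both ages (-0.32 at 12 weeks and -0.25 at 6 weeks). Nqo1 (-1.56) and Gsta2 (-1.70) were lower and Pgd (0.65) higher at 6 weeks, and Osgin1 (-1.30) and Gstm3 (-0.47) were lower at 12 weeks. Under the fixed slide block 1 of the 6 calls of 6 weeks and all 4 of 12 weeks stood in number.

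LXR targets, outside the transporters, gave 1 higher and 2 lower of 13 at 6 weeks and 0 of 13 at 12 weeks in limma's fit, where 4 had an unadjusted p under 0.05. The higher one was Scd1, a fatty acid desaturase (1.08), and the lower ones were Cd36, a fatty acid carrier (-1.83), and Cyp7a1, the rate-limiting enzyme of bile acid synthesis (-2.51). Genes of high-density lipoprotein formation and sterol handling gave 6 lower and 1 higher of 17 at 6 weeks, and 1 lower and 1 higher at 12 weeks. Npc1, which releases cholesterol from lysosomes, was lower at 6 weeks (-0.86), as was Stard4 (-0.59), and Lipg by at least 1.8-fold. Apoa1, the acceptor of the lipid that Abca1 exports, was lower at 12 weeks (-0.41) and higher at 6 weeks (0.30), and Osbpl2 was higher at 12 weeks (0.51). No 6-week call of either list stood under the fixed slide block.

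PPAR-alpha targets gave 3 lower and 1 higher of 18 at 6 weeks and 1 lower at 12 weeks. Cyp4a14 (-3.86), Cyp4a10 (-2.23) and Vnn1 (-1.60) were lower at 6 weeks. Pdk4, which restrains glucose oxidation, was lower at 12 weeks (-1.28) and higher at 6 weeks (2.36). Under the fixed slide block 2 of the 4 calls of 6 weeks stood in number, both lower. Genes of the bile canaliculus and bile flow gave 5 higher and 4 lower of 26 at 6 weeks and 2 higher at 12 weeks. Cldn1 (1.19), of the junctions that seal the canaliculus, and Atp8b1 (0.64), the flippase that works beside Abcb4, were higher at 6 weeks. Slc47a1, an exporter of organic cations, was higher at 12 weeks (0.63) and lower at 6 weeks (-0.51), and Vipas39 was higher at 12 weeks (0.43). The fixed slide block left 2 of the 9 calls of 6 weeks and both of 12 weeks in number.

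Markers of the other cells that whole liver holds were measured beside these genes. Of 7 erythroid markers 4 were tested. Their summed linear level was 119 to 168 in 12-week knockout against 73.9 to 105 in 12-week wild type livers. That sum was 115 to 182 in 6-week knockout against 64.7 to 78.9 in 6-week wild type livers. Most of each of these sums came from Hba-a1 and Alas2, neither called at 12 weeks (adjusted p = 0.0614 and 0.151, limma). Alas2 (1.46), Hba-a1 (0.998) and Slc4a1 (0.41) were higher and Klf1 (-0.91) lower in the knockout at 6 weeks. Klf1 (1.26) and Slc4a1 (0.46) were higher at 12 weeks. The sum of 9 tested T, NK and B cell markers was 37.6 to 48.4 in 12-week knockout against 62.9 to 103 in 12-week wild type livers, with Cd4 (-0.96), Il2rb (-0.85) and Cd3g (-1.77) called lower, though Cd3g was well above background on 1 of the 3 knockout arrays. At 6 weeks it was 46.3 to 62.2 in the knockout against 65.7 to 67.9 in the wild type, with Cd3g called lower and well above background on 2 of the 3 knockout arrays. Most of each of these sums came from the Cd4 probe, so they say little of the other markers. Mean Cd4 levels were 5.11 in 12-week knockout and 6.07 in 12-week wild type livers. In 6-week livers they were 5.45 and 5.80, a difference that was not called. Cholangiocyte markers, of cells that also carry canalicular-type exporters, summed to 40.03 to 43.3 in 12-week knockout against 37.6 to 47.3 in 12-week wild type, and to 42.3 to 44.0 in 6-week knockout against 36.5 to 43.3 in 6-week wild type livers. Among them Sox9 (1.81) was higher and Cftr (-0.99, with 1 of 3 knockout arrays well above background) lower at 6 weeks, and Spp1 (-0.52) and Cldn7 (-0.32) lower at 12 weeks. The fixed slide block left 1 of the 4 erythroid, 1 of the 3 cholangiocyte and 0 of the 1 lymphocyte calls of 6 weeks, and the random block 1, 2 and 0. On the arrays of slide 2 alone, 0 of the 2 erythroid, 1 of the 2 cholangiocyte and 1 of the 3 lymphocyte calls of 12 weeks stood in number. The part of these markers in the transporter differences was not tested.

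The hepatocyte, endothelial and stellate marker calls of 6 weeks were all lost with the slide as a fixed or as a random block. On the arrays of slide 2 alone, the hepatocyte, Kupffer cell and endothelial calls of 12 weeks were all lost. The fixed block left in number 1 of the 2 hepatocyte, 1 of the 2 Kupffer cell and 0 of the 1 endothelial calls of 12 weeks. Of 12 hepatocyte markers Tat (0.92) was higher and Tdo2 (-0.42) and Hpd (-0.35) lower at 6 weeks, and Cps1 (0.53) and Hpd (0.51) were higher at 12 weeks. Of 10 Kupffer cell and macrophage markers, 0 passed at 6 weeks in limma's fit and 0 had an unadjusted p under 0.05, and Folr2 (-0.53) and Timd4 (-0.81) were lower at 12 weeks. Kdr (-0.54), of 10 sinusoidal endothelial markers, and Lrat (-0.50), of 10 stellate and fibroblast markers, were lower at 6 weeks, and Oit3 (0.52) was the endothelial marker called, higher, at 12 weeks. Of 6 intestine and kidney markers Fabp2 (0.62) was higher at 6 weeks, and of 4 adipocyte and pancreas markers 0 passed at either age in limma's fit, with 1 at an unadjusted p under 0.05 at each. The sum of the intestine and kidney markers was 87.8 to 90.2 in 12-week knockout against 79.6 to 107.2 in 12-week wild type, and 84.5 to 99.2 in 6-week knockout against 52.7 to 70.1 in 6-week wild type livers. Most of each of these sums came from the Fabp2 probe, so they say little of the other markers. Mean Fabp2 levels were 6.40 and 6.47 in 12-week knockout and wild type livers, and 6.51 and 5.89 at 6 weeks.

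The genes whose levels over the 12 arrays most resembled those of the 3 transporters with the smallest p over the 4 groups were named by their Pearson correlation. These arrays share the slide split and the group structure, so the correlations describe the arrays and carry no test. For Abcd2 they were Dcaf6 (0.98), Slc35f5 (0.976) and Dipk1a (0.963). Dcaf6 differed by -0.51 at 12 weeks and -0.79 at 6 weeks. For Abcb1a they were Rnf145 (0.977), Sult2a7 (0.966) and Cyp2b10 (0.956). Sult2a7, a sulfotransferase, differed by 0.20 at 12 weeks and -3.34 at 6 weeks. For Abcg2 they were Ubr4 (0.967), Dtx2 (0.954) and Ep400 (0.952). Ubr4 differed by -0.09 at 12 weeks and 0.57 at 6 weeks.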

How the data were processed

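Total RNA of whole livers was labelled with cyanine 3 after oligo-dT priming and hybridised to 1-colour mouse arrays (4 groups of 3), per the labels' protocols. The arrays were quantified with Agilent Feature Extraction 10.7.3.1, per the submitters' processing notes. Per the file headers, the deposited processed signal is an intensity with the background subtracted and without scaling between arrays. The deposited value table held the same intensity, to within 0.497%, so its scale is linear and uncentred, with column medians of 21.6 to 29.5, and it carries no direction. Spot means and local background medians, also deposited by the authors as raw intensity, served the normexp alternative (offset 50).

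Processed signals were divided by the 75th percentile of their own array and log2-transformed; that percentile was 411 to 420 scanner units on slide 1 and 349 to 393 on slide 2. Between 50.1% and 57.7% of spots were well above background; the number of arrays limits the precision. Controls and outlier spots were left out. Probes entered the tests if some group had all 3 arrays well above background (29806 of 55681 probes, 53.5%). Among several probes of a gene the brightest was kept, which left 22130 genes. Current symbols came from a RefSeq table through an accession for 26576 probes, as given for 2607 and through a synonym for 492, and 26006 kept the name in the file. The 4 group means were estimated jointly by limma 3.58.1 under R 4.3.3 (lmFit and eBayes; 8 residual and 2.23 prior degrees of freedom), and p-values were adjusted with the Benjamini-Hochberg method over all genes tested; errors beside differences are standard errors. The script was tested on simulated data. P-values measure the spread between these arrays.

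The members, lists and alternatives were chosen with earlier results of these data known. Named genes were the 10 transporters, Il18, up to 4 genes a list with the smallest p in each genotype comparison among those past the threshold, and the 3 genes most correlated with each of 3 transporters. Applying the alternatives also to the lists was added after seeing the data. Probes for Abcc2 (2), Abcc3 (1) and Abcg8 (1) share a run of 15 bases with other probes of the array on the same strand. Probe positions are on mm9, for which no annotation was used, so exons were not assigned. Same-numbered arrays of different groups had deviations correlated at -0.086 to 0.18, so the numbers were not taken as pairs. Some genes of the lists are not reported here.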

Additional observations from a re-analysis of the deposited data

Results flagged for a closer look

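For 3 transporters the genotype difference itself differed between the ages by the interaction test over all genes (limma, Benjamini-Hochberg). The knockout minus wild type difference of Abca1 at 12 weeks minus that at 6 weeks was -0.39 ± 0.11 (adjusted p = 0.0419), from differences of -0.02 at 12 weeks and 0.37 at 6 weeks. That of Abcb1a was 1.86 ± 0.34 (adjusted p = 0.00778), from -0.26 at 12 weeks and -2.12 at 6 weeks. That of Abcg2 was -1.11 ± 0.14 (adjusted p = 0.00166), from -0.30 at 12 weeks and 0.80 at 6 weeks. With the slide as a fixed block these changes were -0.42 (adjusted p = 0.0791), 2.25 (adjusted p = 0.0113) and -0.94 (adjusted p = 0.0104, limma).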

How the results depend on the processing

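Of 60 transporter differences 20 were called, and 5 of these were called under every alternative: Abcb1a at 6 weeks, over both ages and in its change with age, and Abcg2 for age in the wild type and in its change with age. No called difference changed sign, and of 1424 values over the alternatives 98 lost a call and 19 gained one. Counts of transporters called at 12 weeks (1) were 2 with normexp and with quantile normalization and 0 where all 12 arrays had to be above background (Abcd2 is then not tested), with the slide as a fixed block, on slide 2 alone and with only the compared arrays. Counts over both ages (7) were 3 with no filter, 1 with the fixed and 2 with the random slide block. Counts for age in the knockout (1) were 3 with normexp, 2 with quantile normalization, the 12-array filter and the random block, and 0 with no filter; in the wild type (3), 1 with only the compared arrays. The change with age (3) was called for 5 with normexp, and the 6-week difference (5) for 1 with the fixed block. The deposited table gave the same 6 counts. Leaving out single arrays gave 5 to 6 at 6 weeks, 0 to 1 at 12 weeks, 3 to 6 over both ages, 0 to 2 for age in the knockout, 2 to 4 in the wild type and 2 to 4 for the change with age. A replicate block, whose numbers did not pair the arrays, gave 6, 1, 5, 1, 2 and 2 for these 6 comparisons in the same order. The share of genes called at 6 weeks (21.1%) ran from 2.66% with the fixed block to 28% without replicate 1 of 12-week wild type, and at 12 weeks (8.21%) from 1.71% with only the compared arrays to 11% with normexp. Apart from fits with fewer arrays or other gene sets, the causes were not tested. Signal over background limits Abcd2, Abcc12, Cyp2b9, Lipg, Cd3g and Cftr. All of these but Cftr entered the tests only through wild type groups, where they were high. The bounds given for Abcc12, Cyp2b9 and Lipg hold only for the floor used, which was not specific to the probe.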
